A study of Mus musculus with 15 samples.

Results

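The 9 genes described here belong to the complement system and were chosen by name, out of 35519 genes in the transcript tables. They are C1qa, C1qb and C1qc, which encode the chains of the initiator C1q, C4b and its close copy C4a, the central component C3, the anaphylatoxin receptors C3ar1 and C5ar1, and the membrane regulator Cd59a. Bulk RNA was sequenced by SMART-Seq2, which amplifies whole transcripts from few cells, from retinal microglia sorted as Fcrls+, CD11b+ and Ly6c- cells. All mice were C57BL/6 and 12 weeks old. The groups were Apoe-/- microbead (n = 4), Apoe-/- sham (n = 4), wild-type microbead (n = 3) and wild-type sham (n = 4). Microbeads injected into the eye block the outflow of fluid and raise its pressure, a model of glaucoma, and Apoe-/- mice lack apolipoprotein E in every cell, not in microglia alone. From each retina 100 to 600 cells were sorted. Retinas carry numbers in the labels, with no word on whether each came from its own mouse, so the p-values reflect the spread between these samples alone, and some of it may be technical.

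Complement marks targets for removal in a cascade of cleaved proteins. In the classical pathway C1q binds a surface and its partner proteases cleave C4 and then C2, the products of which cleave C3. Fragments of C3 tag the surface for phagocytes, the small fragments C3a and C5a signal through their receptors, and Cd59a blocks the last step, the membrane pore. Microglia are a main source of C1q in the central nervous system, and complement takes part in the removal of synapses in the developing visual system of the mouse.

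Of the 9 genes, 8 had a row in the tables and 6 passed the filter on low counts and were tested: C1qa, C1qb, C1qc, C4b, C3ar1 and C5ar1. C3 and Cd59a did not pass it. No row of the tables belonged to C4a, and C4a was not analysed here. The annotation gives C4a the class processed_transcript, of which 18 of 790 genes (2.28%) had a row, against 98.9% of protein-coding genes.

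Libraries held 458303 to 714838 reads assigned to genes, of which 40.8 to 74.4% fell on 12 satellite-repeat models. Levels are therefore given as CPM (counts per unit of library size) with TMM-scaled sizes, a scaling that allows for such differences in composition. A level of 3 reads corresponded to 4.20 to 6.55 CPM before that scaling. Apoe, the deleted gene, had 3 to 5 reads in Apoe-/- microbead libraries and 0 to 6 in Apoe-/- sham libraries, against 3894 to 15125 in wild-type microbead and 667 to 1225 in wild-type sham libraries. The 8 microglial markers, P2ry12 and Tmem119 among them, were detected in every library and summed to 6198 to 12847 CPM. The names of the deposited tables carry a letter and a number whose meaning the labels do not give. The letter was G in all wild-type and H in all Apoe-/- libraries, so whatever it stands for cannot be told apart from genotype.

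C4b lies on the minus strand at chr17:34728380-34743882 (mm10, GENCODE M21), and C4a lies on the same strand at chr17:34809092-34823464. The longest C4b transcript, C4b-201, has 5379 bases and C4a-207 has 5371. Over 5367 aligned positions they differ by 207 substitutions, an identity of 96.1%. Of the 5349 stretches of 31 bases in C4b-201, the word length often used to index transcripts, 2610 (48.8%) also occur in C4a, and the longest identical run is 433 bases, starting at base 652. The 60-base window with the most differences holds 13 of them. It is shown because it is where a read would tell the copies apart, with the substituted bases in capitals, as transcript sequence of bases 2761 to 2820 of C4b-201 and 2755 to 2814 of C4a-207.
C4b: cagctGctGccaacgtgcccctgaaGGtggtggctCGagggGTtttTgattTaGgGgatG
C4a: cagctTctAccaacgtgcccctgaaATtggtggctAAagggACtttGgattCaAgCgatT

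With no C4a transcript in the tables, a read from C4a that falls in a shared stretch had only C4b to be assigned to. The values given below for C4b are reads assigned to C4b, and the part of them that came from C4a cannot be told apart with these files. C4b-201 held 97.0% of the C4b reads, with the remainder on the retained-intron transcript C4b-203 (2.75%) and on C4b-202 (0.283%).

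**Figure D1:**
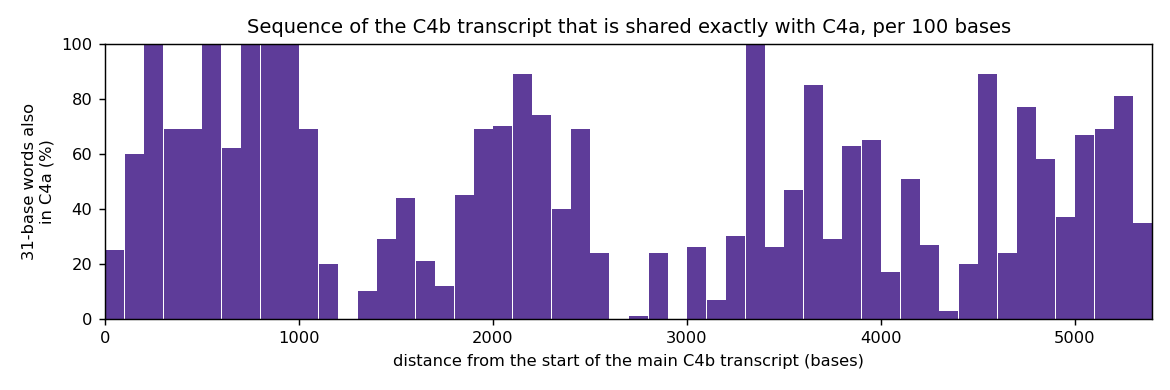
Share of the 31-base words of transcript C4b-201 that also occur in a C4a transcript (percent, vertical axis), in bins of 100 bases along the transcript (horizontal axis, distance from its start in bases). Of 54 bins, 6 were shared in full and 3 held no shared word.

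C4b was higher in microbead than in sham microglia of wild-type retinas. It was the only tested gene of the 9 to be called, with an adjusted p under 0.05 by edgeR, in any comparison. Wild-type microbead libraries held 59, 146 and 239 C4b reads, against 11, 1, 1 and 2 in wild-type sham libraries. These were 85.5, 146 and 319 CPM in microbead libraries and 16.7, 1.75, 1.20 and 4.30 CPM in sham libraries. The lowest microbead library lay above the highest sham library, which alone held most of the sham reads. The log2 fold change was 4.89 (SE 0.98, 95% interval 2.85 to 6.93), with an adjusted p of 0.0362 by edgeR's quasi-likelihood test. In the same comparison 1 of the 6 tested genes was called higher and none lower, where 0.199% of all 6521 tested genes were called higher and none lower. C4b passed the filter on low counts through its reads in microbead libraries, as sham libraries held few. Its place among the 6 is thus not independent of the call. The call had little margin. It was lost, with adjusted p-values of 0.0535 to 0.207, when any 1 of the wild-type sham libraries, wild-type microbead library 2 or 3, or Apoe-/- sham library 1 or 4 was left out, and with the retina number as a block (adjusted p = 0.146). All of these fits kept a log2 fold change of at least 4.23. In bulk samples fewer cells of a kind and less RNA per cell cannot be told apart.

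In Apoe-/- retinas the microbead libraries split. They held 4, 64, 101 and 2 C4b reads, against 4, 3, 5 and 8 in Apoe-/- sham libraries. These were 8.29, 175, 196 and 3.11 CPM in microbead libraries and 9.52, 13.3, 8.70 and 20.9 CPM in sham libraries. Microbead libraries 2 and 3 thus lay in the range of the wild-type microbead libraries. Libraries 1 and 4 lay near the Apoe-/- sham libraries, below each of them in CPM, but on only 4 and 2 reads. In the authors' deposited gene TPM they had 0.335 and 0.738 TPM, against 0.360, 0.299, 0.341 and 0.719 TPM in Apoe-/- sham libraries, and these overlapped. The log2 fold change was 2.86 (SE 0.94, 95% interval 0.90 to 4.82) and did not pass the test, with an adjusted p of 0.700 by edgeR and 0.731 by DESeq2. Without the filter on low counts the adjusted p by edgeR was 4.71e-08, at a similar log2 fold change (2.97) with a smaller SE (0.43). The small p-value of that setting thus came with a smaller estimate of spread, and the split of the libraries was the same. The response in Apoe-/- minus that in wild type was -2.03 (SE 1.44, 95% interval -5.04 to 0.98, adjusted p = 1.00 by edgeR), an interval that covers responses of equal size. Between the genotypes the log2 fold change of C4b, Apoe-/- over wild type, was -0.97 (SE 0.76) in microbead retinas and 1.06 (SE 1.21) in sham retinas, and neither passed. By mean level the order was wild-type microbead (183 ± 121 CPM, SD, n = 3), Apoe-/- microbead (95.6 ± 104 CPM, SD, n = 4), Apoe-/- sham (13.1 ± 5.56 CPM, SD, n = 4) and wild-type sham (5.99 ± 7.27 CPM, SD, n = 4). Neighbours in this order overlapped in their libraries.

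Other measures of the libraries were set beside these values. Satellite reads took 40.8 to 53.5% of the wild-type microbead libraries and 55.9 to 66.6% of the wild-type sham libraries, without overlap. With the satellite models left out of the fit, C4b changed by 4.91 in wild-type retinas (SE 0.97, adjusted p = 0.0307 by edgeR). The 6 markers of monocytes, which the Ly6c- gate is meant to leave out, summed to 34.8 to 87.0 CPM in wild-type microbead libraries and 8.39 to 40.9 CPM in wild-type sham libraries. In reads over those groups, Fn1 had 130 against 37, Ccr2 30 against 13 and S100a4 6 against 0. Ly6c2 had 4 against 3, Plac8 1 against 0 and Chil3 0 against 4. The 8 Müller glia and astrocyte markers summed to 128 to 285 CPM in wild-type microbead and 89.1 to 156 CPM in wild-type sham libraries, with Vim at 195 reads over the microbead libraries against 5 over the sham libraries. The other genes of that list had 224 against 253 reads (Glul), 65 against 61 (Slc1a3), 3 against 2 (Gfap), 2 against 0 (Dkk3), 1 against 2 (Clu), 0 against 3 (Rlbp1) and 0 in both (Aqp4). The 6 markers of border-associated macrophages summed to 31.9 to 105 CPM in wild-type microbead and 28.0 to 79.0 CPM in wild-type sham libraries. Single genes went both ways. In reads over the microbead against the sham libraries, Ms4a7 had 95 against 24 and F13a1 51 against 32. Mrc1 had 16 against 40, Cd163 2 against 23, Pf4 2 against 23 and Lyve1 3 against 5. Endothelial markers summed to at most 34.8 CPM and neutrophil markers to at most 1.00 CPM in wild-type microbead libraries. Rod markers summed to 131 and 1254 CPM in Apoe-/- microbead libraries 2 and 3, with high C4b, and to 456 and 2232 CPM in libraries 1 and 4. In the same order, satellite reads took 70.7 and 67.1% against 63.3 and 55.4%, the other way round from the wild-type groups. Microglial markers summed to 9072 and 7725 CPM against 10074 and 12847 CPM. Satellite share and microglial markers thus did not overlap between the high and low libraries, and rod markers did. Their part in the split was not tested. The part of other cells in the C4b difference was not tested.

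**Figure D2:**
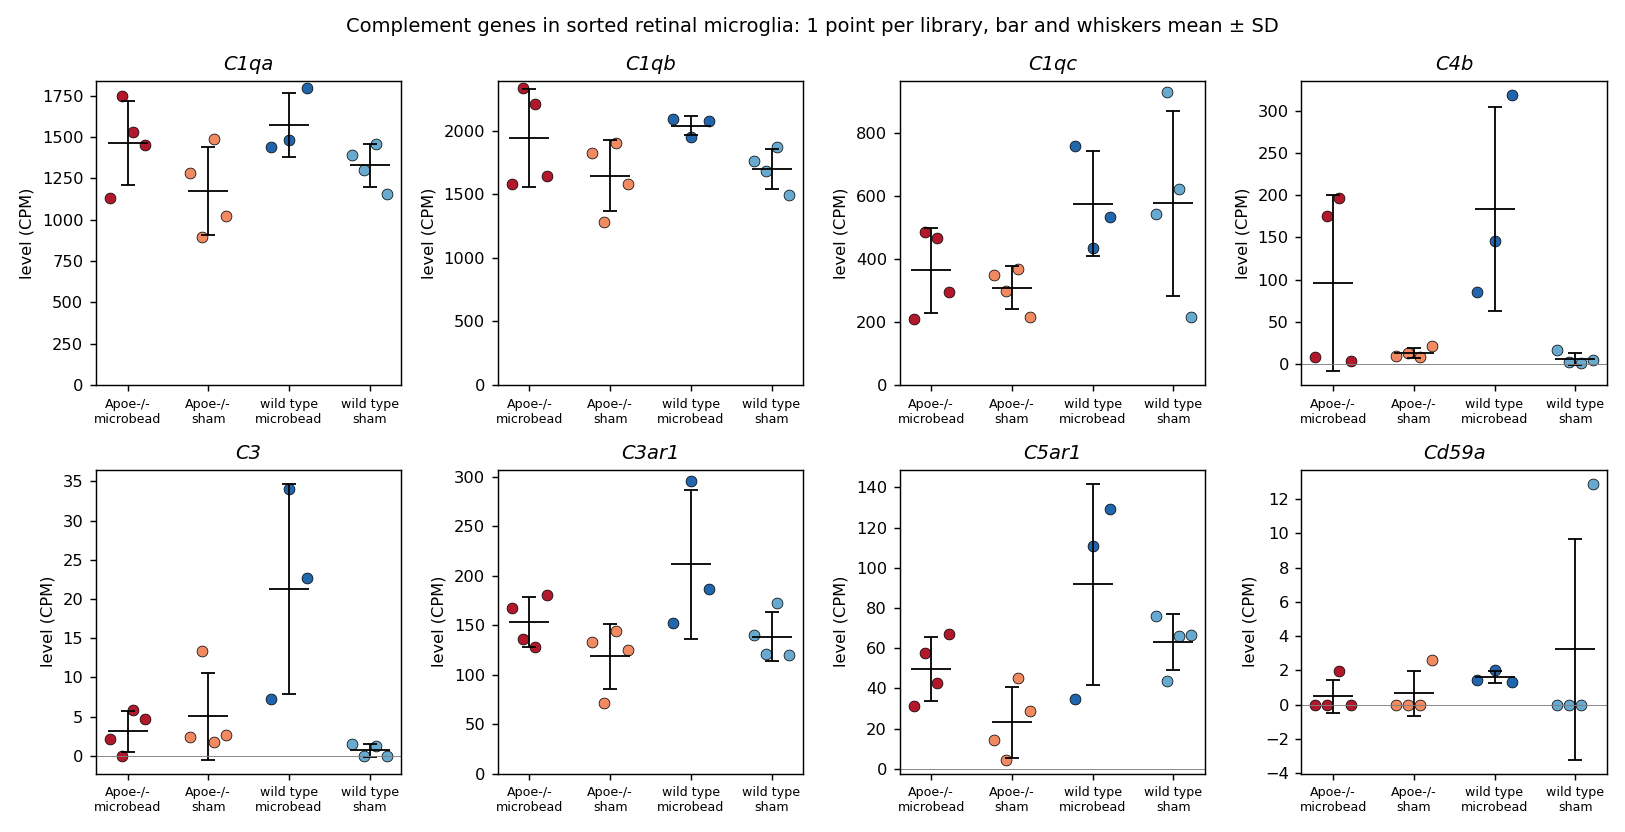
Level of the 8 complement genes with a row in the tables, in CPM with TMM-scaled library sizes (vertical axes, linear), in Apoe-/- microbead, Apoe-/- sham, wild-type microbead and wild-type sham libraries. Each point is a library, and the bar and whiskers are the mean and SD (n = 4, 4, 3 and 4). C4b reached 319 CPM in wild-type microbead libraries and at most 16.7 CPM in wild-type sham libraries, and the C4b levels of Apoe-/- microbead libraries fell into 2 high and 2 low ones.

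C3 lies on the minus strand at chr17:57203970-57228136 and shares no 31-base word of its main transcript with another gene. It is the component on which all activation pathways meet. Only 71 C3 reads were found in all 15 libraries, and 12 libraries held 3 or fewer. Wild-type microbead libraries held 5, 34 and 17 C3 reads (7.24, 34.0 and 22.7 CPM), against 1, 0, 1 and 0 in wild-type sham libraries (1.52, 0, 1.20 and 0 CPM). Apoe-/- microbead libraries held 1, 0, 3 and 3 reads, against 1, 3, 1 and 1 in Apoe-/- sham libraries. In CPM, Apoe-/- sham library 2 lay at 13.3 from its 3 reads, above wild-type microbead library 1. More than 3 reads were thus found in the wild-type microbead libraries. All 3 of these libraries lay above every wild-type sham library and, in CPM, every Apoe-/- microbead library. Of all tested genes, among which C3 was not, 6.32% lay without overlap like the former and 3.7% like the latter. In the authors' deposited gene TPM these groups overlapped: wild-type microbead libraries had 0.441, 2.96 and 2.09 TPM, against 0.967, 0, 0.0701 and 0 TPM in wild-type sham libraries and 0.0876, 0, 1.58 and 0.264 TPM in Apoe-/- microbead libraries. The 0.967 TPM of wild-type sham library 1 is 1 read placed on the short transcript C3-203.

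The summed C3 reads gave 56 in wild-type microbead against 2 in wild-type sham libraries, a ratio of 29.0 after scaling (exact 95% interval 7.67 to 246). Apoe-/- microbead libraries held 7 reads against 56 in wild-type microbead libraries, a ratio of 0.152 (exact 95% interval 0.0585 to 0.334). These intervals cover counting error alone, and the reads were not tagged with molecular identifiers. By exact two-sided permutation of C3 CPM over libraries, p was 0.0286 for wild-type microbead against sham and for Apoe-/- against wild type in microbead retinas, the smallest value 35 arrangements allow, and 0.743 for Apoe-/- microbead against sham. In sham retinas, Apoe-/- over wild type again gave an exact permutation p of 0.0286 (over 70 arrangements), from 1, 3, 1 and 1 reads in Apoe-/- against 1, 0, 1 and 0 in wild-type libraries. After adjustment over the 12 permutation tests run, these 3 comparisons each had an adjusted permutation p of 0.114, so none passed. With no filter on low counts, edgeR gave C3 a log2 fold change of 4.52 in wild-type retinas (SE 0.90, adjusted p = 0.000371). The SE of C4b in that setting was 0.45, against 0.98 in the fit reported, so p-values of these fits are not comparable. In the fit that left out wild-type microbead library 1, C3 passed the filter and gave 4.85 (SE 0.99, adjusted p = 0.0339 by edgeR). That library held the fewest C3 reads of its group, 5, so the p-value without it is no added support.

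C1qa, C1qb and C1qc lie side by side on the minus strand of chromosome 4, at chr4:136895917-136898803, chr4:136880129-136886187 and chr4:136889804-136893065, and their products assemble into one C1q molecule. No 31-base word of their main transcripts occurs in another gene. The promoters of C1qb and C1qc are shown because these neighbours encode chains of one protein and, as given below, followed C1qa to different degrees. They run from 250 bases before to 50 bases after the start of each gene (RefSeq, GRCm38.p6, minus strand, chr4:136886151-136886450 and chr4:136892865-136893164). Capitals mark the core binding letters of PU.1, the transcription factor that defines myeloid cells, searched as GAGGAA on both strands.
C1qb: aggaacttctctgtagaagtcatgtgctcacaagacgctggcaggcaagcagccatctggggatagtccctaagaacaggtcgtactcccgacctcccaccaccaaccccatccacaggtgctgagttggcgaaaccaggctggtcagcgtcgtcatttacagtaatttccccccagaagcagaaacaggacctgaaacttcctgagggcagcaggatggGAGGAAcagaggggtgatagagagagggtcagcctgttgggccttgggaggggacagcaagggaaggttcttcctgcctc
C1qc: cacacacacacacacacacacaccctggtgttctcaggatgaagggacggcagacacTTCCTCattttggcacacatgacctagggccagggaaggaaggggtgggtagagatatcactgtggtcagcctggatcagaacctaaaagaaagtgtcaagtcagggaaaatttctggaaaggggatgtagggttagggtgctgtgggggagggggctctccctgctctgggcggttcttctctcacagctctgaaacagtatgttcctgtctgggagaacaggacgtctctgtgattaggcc

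Each of these windows held 1 match, on the strand of the gene in C1qb and on the other strand in C1qc. Of 32851 promoters of that length, 28.3% held one or more, so a match is common. The Cd59a window also held 1 match, and those of C3, C3ar1 and C5ar1 held 0. The letters TTGCNNAA, of C/EBP factors, matched once in C3 and in none of the other windows (10.8% of all promoters). No match overlapped another, and a match describes letters and not a bound site. C1qa, C4b and C4a have no entry in that table.

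In every library the C1q genes had the highest TPM of the genes measured among the 9, and none of the 3 passed the test in any comparison. Together they took 0.475 to 1.14% of the reads outside satellite models. C1qb had 2090, 1954 and 2075 CPM in wild-type microbead libraries, against 1760, 1683, 1870 and 1497 CPM in wild-type sham libraries. Every microbead library exceeded every sham library, which happened upward for 6.32% of all tested genes, among them C1qb and C4b of these 6. The C1qb difference was small, with a log2 fold change of 0.26 (SE 0.24, 95% interval -0.25 to 0.77, adjusted p = 0.840 by edgeR). In Apoe-/- retinas C1qb had 1583, 2338, 2210 and 1646 CPM in microbead libraries, against 1825, 1279, 1907 and 1581 CPM in sham libraries. These groups overlapped, with a log2 fold change of 0.24 (SE 0.23).

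C1qa had 1440, 1480 and 1794 CPM in wild-type microbead libraries, against 1393, 1303, 1459 and 1157 CPM in wild-type sham libraries. It had 1131, 1746, 1528 and 1450 CPM in Apoe-/- microbead libraries, against 1282, 897, 1491 and 1023 CPM in Apoe-/- sham libraries. Both pairs overlapped. The log2 fold changes of microbead over sham were 0.32 (SE 0.23) in Apoe-/- and 0.24 (SE 0.25) in wild-type retinas, with 95% intervals of -0.17 to 0.81 and -0.28 to 0.77. For C1qa and C1qb the intervals of both responses end at or below 0.81 on the log2 scale.

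The unit mattered for these abundant genes. In the authors' deposited gene TPM, which share a fixed total with the satellite reads, C1qa had 550, 808 and 1037 TPM in wild-type microbead libraries, against 424, 364, 529 and 260 TPM in wild-type sham libraries, without overlap. On the log2(TPM + 1) scale the median of all tested genes was itself 0.59 higher in wild-type microbead than in wild-type sham libraries. The overlap seen in CPM is thus the value relative to the other genes.

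C1qc was lower than its neighbours. Apoe-/- microbead libraries had 209, 486, 467 and 294 CPM, against 350, 297, 369 and 217 CPM in Apoe-/- sham libraries. Wild-type microbead libraries had 759, 434 and 532 CPM, against 542, 928, 621 and 215 CPM in wild-type sham libraries. The wild-type sham libraries alone spread from 215 to 928 CPM, and the groups overlapped in all 4 comparisons between groups. The log2 fold change of microbead over sham was 0.24 (SE 0.37) in Apoe-/- and -0.01 (SE 0.39) in wild-type retinas. Apoe-/- over wild type gave -0.90 in sham retinas (SE 0.37, 95% interval -1.67 to -0.13, unadjusted p = 0.0242, adjusted p = 0.555 by edgeR) and -0.66 in microbead retinas (SE 0.39, adjusted p = 0.749 by edgeR).

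Per length, in TPM, C1qb was 1.02 to 1.37 times C1qa in every library, a 1.34-fold range, while C1qc was 0.163 to 0.626 times C1qa, a 3.83-fold range. The ratio of C1qc to C1qa averaged 0.215 ± 0.0524 over the 4 Apoe-/- microbead libraries (SD), 0.236 ± 0.0451 over the 4 Apoe-/- sham libraries, 0.327 ± 0.119 over the 3 wild-type microbead libraries and 0.378 ± 0.189 over the 4 wild-type sham libraries. Between Apoe-/- and wild type, exact two-sided permutation gave p = 0.143 in microbead and 0.200 in sham retinas (adjusted over the 12 permutation tests, 0.343 and 0.400). Between microbead and sham the exact permutation p was 0.571 in Apoe-/- and 0.743 in wild-type retinas. None of the 4 differences in C1qb to C1qa passed, with exact permutation p-values of 0.114 to 1. C1qc-201 held 96.0% of the C1qc reads, and the noncoding C1qc-202 held 4.03%.

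**Figure D3:**
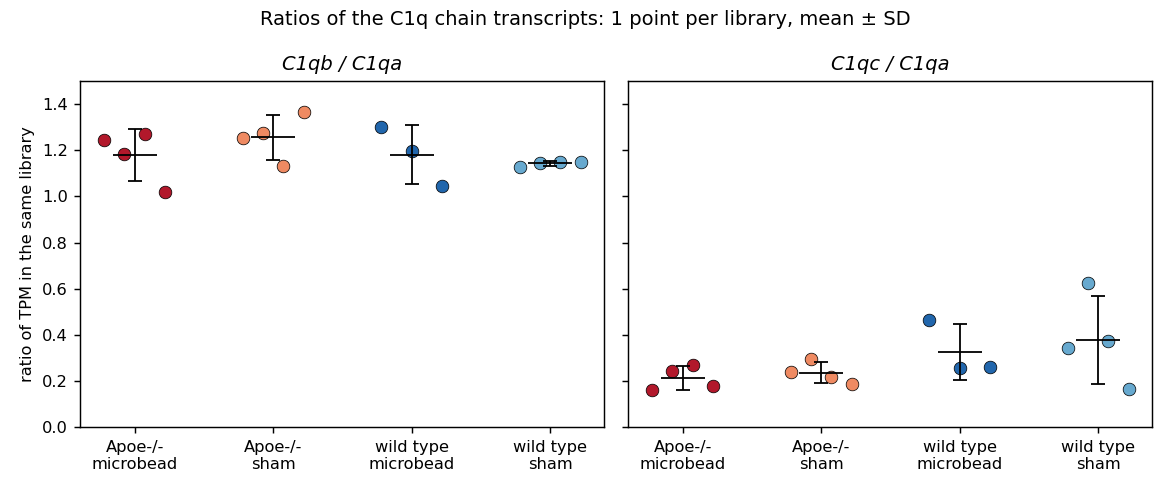
Ratio of C1qb to C1qa (left) and of C1qc to C1qa (right), both in TPM of the same library, by group, with 1 point per library and the mean and SD. C1qb kept between 1.02 and 1.37 times C1qa, and C1qc spread from 0.163 to 0.626 times C1qa, with the widest spread in wild-type sham libraries.

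C3ar1 encodes the receptor of C3a and lies on the minus strand at chr6:122847138-122856161. It had 168, 137, 128 and 180 CPM in Apoe-/- microbead libraries, against 133, 71.0, 144 and 125 CPM in Apoe-/- sham libraries. It had 152, 296 and 187 CPM in wild-type microbead libraries, against 140, 121, 173 and 120 CPM in wild-type sham libraries. Wild-type microbead library 2 was the highest of all, and both pairs of groups overlapped. The log2 fold change of microbead over sham was 0.61 in wild-type retinas (SE 0.28, 95% interval 0.02 to 1.21, unadjusted p = 0.0447, adjusted p = 0.618 by edgeR) and 0.35 in Apoe-/- retinas (SE 0.28, adjusted p = 0.776 by edgeR). The difference between those responses was -0.26 (SE 0.40, 95% interval -1.09 to 0.57).

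C5ar1 encodes the receptor of C5a and lies on the minus strand at chr7:16246743-16259540. Apoe-/- microbead libraries had 31.1, 57.4, 42.8 and 66.9 CPM, against 14.3, 4.44, 45.2 and 28.7 CPM in Apoe-/- sham libraries, which rest on 6, 1, 26 and 11 reads. Wild-type microbead libraries had 34.8, 111 and 129 CPM, against 75.9, 43.7, 65.9 and 66.7 CPM in wild-type sham libraries. The Apoe-/- sham libraries were the lowest on average, and Apoe-/- sham library 3 overlapped the wild-type sham libraries. Apoe-/- over wild type was -1.30 in sham retinas on the log2 scale (SE 0.46, 95% interval -2.26 to -0.35, unadjusted p = 0.0102, adjusted p = 0.555 by edgeR). In microbead retinas it was -0.89 (SE 0.43, adjusted p = 0.691 by edgeR). Microbead over sham was 0.96 in Apoe-/- (SE 0.47, adjusted p = 0.700 by edgeR) and 0.54 in wild-type retinas (SE 0.42, adjusted p = 0.780 by edgeR).

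C5ar1-201 held 83.4% of the C5ar1 reads, but the deposited tables placed all 55 C5ar1 reads of wild-type sham library 3 and 21.6 of the 26 in Apoe-/- sham library 3 on C5ar1-202. Sums per gene do not depend on that split. Cd59a, at chr2:104095801-104115354 on the plus strand, had 11 reads in all 15 libraries. In 14 of them it had 3 or fewer reads, and wild-type sham library 4 held 5.51, so its level could not be compared at this depth. Of its main transcript, 10.2% of the 31-base words also occur in other genes, most of them in its copy Cd59b.

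**Figure D4:**
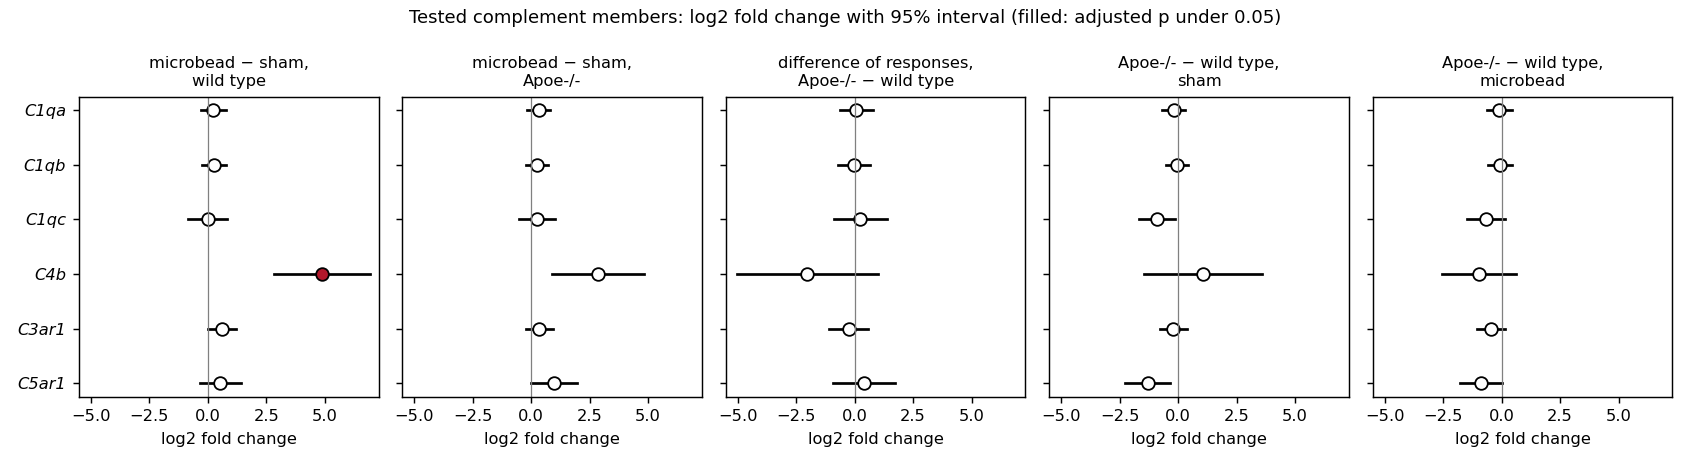
Log2 fold change (points, horizontal axes) with its 95% interval (lines) of the 6 tested complement genes in 5 comparisons: microbead minus sham in wild type and in Apoe-/-, the difference of those responses, and the genotypes, Apoe-/- minus wild type, in sham retinas and in microbead retinas. The filled point marks the only adjusted p under 0.05, that of C4b in wild-type retinas at 4.89.

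Over the 6 tested genes, the median log2 fold change of microbead over sham was 0.34 in Apoe-/- retinas, with 6 of 6 above 0, and 0.40 in wild-type retinas, with 5 of 6 above 0. Over all tested genes these medians were 0.01 and -0.01. In Apoe-/- retinas 0 of the 6 passed by edgeR or by DESeq2, 1 had an unadjusted p under 0.05 (C4b, beside 453 of the 6521 genes), and 0% of all tested genes were called by edgeR. For the difference between responses the 6 had a median of 0.03 and 3 above 0. None of them passed by either tool or had an unadjusted p under 0.05, beside 221 of the 6521 genes, and 0% of all tested genes were called. For Apoe-/- over wild type the median was -0.56 in microbead retinas, with 0 of 6 above 0, and -0.19 in sham retinas, with 1 of 6 above 0 (C4b), against 0.01 and -0.01 over all genes. None of the 6 passed by edgeR or DESeq2 in either, where edgeR called 0.046% of all genes in microbead and 0.0153% in sham retinas. Unadjusted p-values under 0.05 were found for 0 of them in microbead and for 2 in sham retinas (C1qc and C5ar1), beside 469 and 566 of the 6521 genes. The comparisons share libraries, so these counts are not independent of each other.

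Of 50 further complement genes, 10 passed the filter on low counts. Microglia of these retinas gave few reads of the rest: 39 of the 50 had fewer than 50 reads in all 15 libraries together, and 4 had 0, Cfd, Cd55b and Colec11 among them. C5ar2 is one of the 39 on part of its reads only, as not all of its transcripts were assigned to a gene here. None of the 5 listed partners that start the classical pathway, of the 3 alternative pathway genes or of the 7 terminal pathway genes was tested. Those tested included the collectin Colec12, the regulators Cr1l and Vtn, and the receptors or binding proteins Itgam, Itgax, Itgb2, Cd93, C1qbp and Calr.

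Itgax was the only one of these 10 to pass the test in any comparison, and it passed for microbead over sham in wild-type retinas, where 0.199% of all tested genes were called higher. It encodes the alpha chain of complement receptor 4, an integrin that binds C3 fragments, and is widely used as a marker of microglia that have left the resting state. Itgax had 40.6, 63.0 and 45.4 CPM in wild-type microbead libraries, against 9.11, 12.2, 9.59 and 15.1 CPM in wild-type sham libraries. The groups did not overlap, as for 6.32% of all tested genes in that direction, and the log2 fold change was 2.13 (SE 0.39, adjusted p = 0.0179 by edgeR). With wild-type microbead library 2 left out, 0 genes of all were called in that comparison, so the Itgax call was lost. Itgax was not followed singly through the other alternatives. In Apoe-/- retinas Itgax had 14.5, 32.8, 23.3 and 15.6 CPM in microbead libraries, against 9.52, 13.3, 22.6 and 5.22 CPM in sham libraries. All Apoe-/- microbead libraries lay below all wild-type microbead libraries, as for 3.7% of all tested genes, but Apoe-/- over wild type did not pass there (-1.24, SE 0.38, adjusted p = 0.478 by edgeR), nor did the difference between responses (-1.47, SE 0.59, adjusted p = 1.00 by edgeR).

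The partner chain Itgb2, and Itgam, which pairs with it as complement receptor 3, had log2 fold changes of microbead over sham of 0.52 (SE 0.31) and 0.50 (SE 0.27) in Apoe-/- and of 0.43 (SE 0.32) and 0.31 (SE 0.29) in wild-type retinas, none past the test. Vtn, an inhibitor of the membrane pore, gave 2.04 in Apoe-/- (SE 1.02, adjusted p = 0.700 by edgeR), from 2, 0, 17 and 25 reads in microbead against 1, 3, 1 and 2 reads in sham libraries. Colec12, a scavenger receptor, gave -0.93 there (SE 0.51), and Apoe-/- over wild type in sham retinas gave 1.18 (SE 0.51, adjusted p = 0.555 by edgeR). The median over the 10 was 0.43 in Apoe-/- and 0.02 in wild-type retinas for microbead over sham.

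The genes whose log2 CPM followed C4b most closely over the 15 libraries, by Pearson's r, were Cd244a (0.91), Fcgr2b (0.88), Cd63 (0.86), Ctsl (0.85) and Rplp2 (0.84). Cd244a encodes an immune receptor of the SLAM family, Fcgr2b the inhibitory Fc receptor, Cd63 a lysosomal tetraspanin, Ctsl a lysosomal protease and Rplp2 a ribosomal protein. Cd244a had 8, 18, 36 and 2 reads in Apoe-/- microbead libraries and 3, 4, 5 and 3 in Apoe-/- sham libraries, and it had 18, 38 and 44 reads in wild-type microbead libraries and 3, 2, 4 and 0 in wild-type sham libraries. Apoe-/- microbead libraries 2 and 3, which were high in C4b, were the high ones of their group in Cd244a. Cd244a was picked for its likeness to C4b over these same libraries, so this is no separate support for the split. For the mean of the C1q genes the closest were Ly6e (0.91), Lamp1 (0.90), Rrbp1 (0.89), Ifi27l2a (0.87) and Bin1 (0.86). Among the tested complement genes, r was 0.89 between C1qa and C1qb, 0.57 between C1qa and C1qc, 0.76 between C3ar1 and C5ar1, and 0.52 between C1qa and C4b. These values describe the libraries, which share group and depth, and were not tested.

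**Figure D5:**
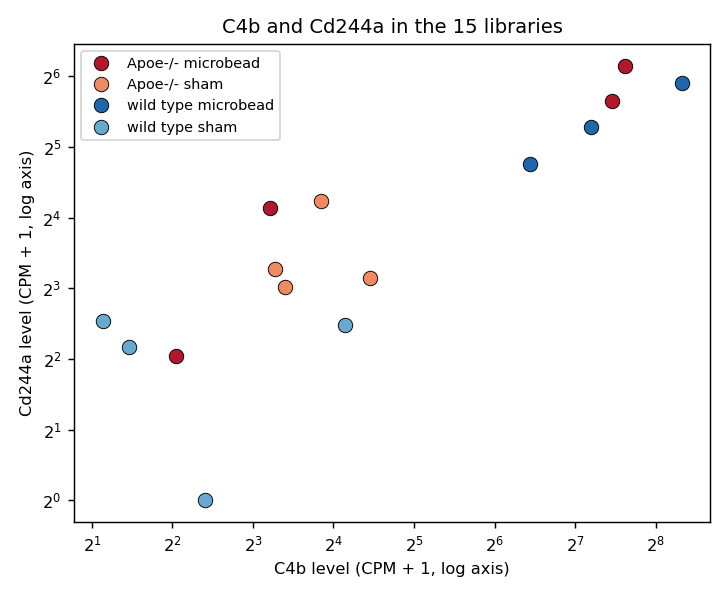
C4b (horizontal axis) against Cd244a (vertical axis), both as CPM + 1 on log axes with base 2, with 1 point per library coloured by group. Cd244a was picked for its likeness to C4b over these same libraries. The 3 wild-type microbead libraries and Apoe-/- microbead libraries 2 and 3 lie at the upper right, and all sham libraries and Apoe-/- microbead libraries 1 and 4 lie at the lower left.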

How the data were processed

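Bulk RNA-seq of 15 libraries was analysed. The authors deposited transcript tables with estimated counts, effective lengths and TPM, and a table of gene TPM for the series, per the file headers. Salmon 1.4.0, R 4.0.3, DESeq2 1.30.1 and build mm10 are named in the submitters' processing notes. The annotation release is not given in the sources used here.

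GENCODE M21, on mm10, supplied the gene of each transcript: 116023 of 116945 were assigned, to 35519 genes. The unassigned transcripts held 0.217 to 0.354% of reads and were left out. TPM summed per gene equalled the deposited gene values in 99.7% of cases (relative tolerance 0.001, 34358 of 35735 genes matched by symbol). For genes whose reads are given it did so in all 15 libraries, other than Aqp4 (11 of 15) and C5ar2 (3 of 15). The deposited estimated counts were added up within each gene, then rounded to integers. None of the 21 pairs of replicates agreed within sampling noise (chi-square at least 2.34 per degree of freedom).

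The 4 groups were fitted together with edgeR 4.0.16 in R 4.3.3 (quasi-likelihood F-test, TMM, filterByExpr, 6521 genes tested, common biological coefficient of variation 34.4%, prior degrees of freedom 8.52). P-values are two-sided and adjusted by Benjamini-Hochberg over all genes tested, with a threshold of 0.05. A change is given as a log2 fold change with its standard error (SE). Values without a passing filter (C3) and C1q ratios were compared by permuting libraries (exact, two-sided), with 12 such tests. DESeq2 1.42.0 and limma 3.58.1 served for alternatives. The fit was tested on simulated data. Likeness to C4b and to the C1q mean was Pearson's r of log2 CPM with a prior count of 2, and the 5 closest genes are named. Of the further complement genes, those called in a comparison are named, or else examples among the 3 with the smallest p-values. One tested gene of that list is not reported here.

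The complement genes, the further list and the marker lists were chosen with earlier results of these data known. Transcript words of 31 bases were compared with all transcripts of GENCODE M21. Promoters are from RefSeq on GRCm38.p6 and 6 of the 9 genes matched.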

Additional observations from a re-analysis of the deposited data

How the results depend on the processing

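The number of complement genes called for microbead over sham in wild-type retinas was 1 in the fit reported and ranged from 0 to 2 when single libraries were left out. It was 2 with no filter on low counts, where C3 joined C4b, and 0 with at least 10 reads required in at least 7 libraries, which leaves C4b untested. It was 0 with the replicate block, where the C4b fold change was 4.38 on the log2 scale (SE 1.02, adjusted p = 0.146 by edgeR). Without Apoe-/- sham libraries 2 and 4, chosen after seeing the data for their small scaled sizes, it was 2, C3 again being the second. Over all genes, the fit reported called 13 in wild-type retinas, against 124 with no filter and 27 without those sham libraries. Without wild-type microbead library 1, where C3 also passed, 29 were called. The settings that called C3 thus called more genes of every kind. The stricter filter called 5, the replicate block 7 and DESeq2 36. In Apoe-/- retinas the number of complement genes called was 1 with no filter (C4b) and 0 otherwise. In the other comparisons it was 0 under every alternative run. Deviations from the group means were correlated between libraries of different groups. Over same-numbered libraries the correlation was -0.17 to 0.22, with 3 of 21 pairs over 0.1, against 14 of 63 pairs with other numbers. Of 15 libraries, 2 correlated best with their own number. Same-numbered pairs of different genotypes, which cannot share a mouse, were pooled in. These values thus cannot decide whether microbead and sham libraries of a genotype share mice.

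Of 767 values of the 30 single-gene results under alternatives, 725 kept direction and side of the threshold, 9 lost the call (all C4b in wild type), 1 gained it and 32 turned direction, none of them called. The turned values are log2 changes of results that did not pass, and the cause was not tested. C1qc in wild type gave 0.025 with no filter, 0.0050 without satellite models, 0.30 and 0.15 on log2(TPM + 1) and log2(TPM + 0.1), 0.18 with length offsets, and -0.29 to 0.32 with single libraries left out. For the difference between responses, C1qa gave -0.0015 on log2(TPM + 1), -0.13 with length offsets, -0.17 without Apoe-/- sham libraries 2 and 4, and -0.037 to 0.21 with single libraries left out. C1qb gave 0.032 with no filter, 0.021 with the replicate block and -0.13 to 0.064 with single libraries left out. C1qc gave -0.033 on log2(TPM + 1) and -0.087 to 0.52 with single libraries left out, C3ar1 -0.44 to 0.072 with single libraries left out, and C5ar1 -0.21 with length offsets. For Apoe-/- over wild type in sham retinas without Apoe-/- sham libraries 2 and 4, C1qa gave 0.071, C1qb 0.14 and C3ar1 0.010. With single libraries left out C1qb gave -0.13 to 0.061 there, and in microbead retinas C1qa gave -0.20 to 0.0018 and C1qb -0.17 to 0.017.

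Changes on the TPM scales are given relative to the median of all genes, which moved by 0.59 in wild-type and 0.18 in Apoe-/- retinas with a pseudocount of 1. Over all genes, the number called ranged from 0 to 124 in wild-type and 0 to 37 in Apoe-/- retinas, 0 to 45 for the difference, 1 to 41 between genotypes in sham and 1 to 195 in microbead retinas. Adding C4a to C4b, and the share of C4a in their sum, were not run, since C4a had no row. Depth limits C3 and Cd59a, and the C4b level of sham libraries, which rests on 1 to 11 reads.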

Other observations

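The following genes of the further complement list failed the filter on low counts and are named after their values were seen. Cfb, the protease of the alternative pathway, had 2, 3, 4 and 0 reads in Apoe-/- microbead libraries, against 0 in every Apoe-/- sham library, and it had 0, 31 and 2 reads in wild-type microbead libraries, against 2 reads over all wild-type sham libraries. With no filter on low counts, Cfb gave a log2 fold change of microbead over sham of 4.48 in Apoe-/- (SE 1.59, adjusted p = 0.655 by edgeR) and 3.57 in wild-type retinas (SE 1.07, adjusted p = 0.142 by edgeR), and neither passed. The 31 reads of wild-type microbead library 2 decide the wild-type level. That library also had the most C3 reads, 34, and the highest C3ar1 level.

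C5ar2, the second receptor of C5a, could be read in full only in the authors' deposited gene TPM. Some of its transcripts have no entry in the annotation used to sum reads. Its assigned transcripts held 8, 0, 4 and 7 reads in Apoe-/- microbead libraries and 0 in every other group. The TPM of wild-type libraries thus came from transcripts without an entry, so the TPM values below do not all rest on the same transcripts. C5ar2 had 1.29, 0.154, 0.495 and 1.01 TPM in Apoe-/- microbead libraries, against 5.68, 7.12 and 9.52 TPM in wild-type microbead libraries. It had 0.879, 0.212, 0.826 and 0.207 TPM in Apoe-/- sham libraries, against 4.30, 5.00, 3.72 and 1.81 TPM in wild-type sham libraries. Every Apoe-/- library lay below every wild-type library in TPM. The share of all genes that did so was not counted, and the C5ar2 difference was not tested. On the log2(TPM + 1) scale the median change of all tested genes, Apoe-/- over wild type, was itself -0.73 in microbead and -0.30 in sham retinas. The table letter and the genotype cannot be told apart in the C5ar2 values.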
